A study of Mus musculus with 2 samples.

Results

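The genes Spp1, Gpnmb, Fabp5, Lgals3 and Vim were followed in 2 single-cell count tables of the mouse retina, 5 of the 31053 genes in each table. They were picked as a group because earlier summaries of these tables had placed them among the genes that differed most between the libraries, so that their difference is given here as a description with no test. Retinal cells were sorted for CD45, the pan-leukocyte antigen, which microglia display at low density, and transcripts were counted by unique molecular identifiers (UMIs) from 3′ ends. The library labelled Igfbpl1-/-, called the library labelled knockout below, is labelled as coming from mice without Igfbpl1, which encodes a protein related to the insulin-like growth factor binding proteins. The library labelled wildtype came from C57BL/6 mice matched for age and sex, and both are recorded as strain C57BL/6. The study's design names 10 knockout and 10 wildtype mice aged 8 to 10 months, perfused before dissection; the labels used here do not give the allele, the deleted part or the number of mice in each library. Each group is 1 library, so no replicate existed and no test was possible: all intervals are 95% and cover counting error only.

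The tables held 1785 barcodes and 7945713 UMIs under the knockout label, and 2735 barcodes and 11020717 UMIs under the wildtype label. Filtering kept 1761 and 2695 cells with medians of 4286 and 3910 UMIs, and the libraries shared 1 barcode. Igfbpl1 went against the labels, with 29 counts in 27 barcodes under the knockout label and 2 counts in 2 barcodes under the wildtype label. A 3′ tag outside the deleted part would check nothing, so groups are called by their labels throughout. Cells were put into classes by the number of detected markers. The class of microglia held 1469 cells (83.4%) under the knockout label and 2352 (87.3%) under the wildtype label, with the markers Cx3cr1 in 92.7% and 91.4% of them and P2ry12 in 90.7% and 93.5%. Border macrophages, the macrophages of vessels and membranes, numbered 55 and 69 cells, monocytes 38 and 13, and Müller glia, the radial glia of the retina, 42 and 53. Border macrophages also carried a median of 7 microglia markers, against 3 of their own, in both libraries. Their class rested on Ms4a7 (98.2% and 98.6% of cells), Mrc1 (85.5% and 72.5%), Pf4 (67.3% and 82.6%) and Stab1 (81.8% and 78.3%, but also 24% and 23.1% of microglia). Each of the 6 other markers was in fewer than 9% of them, and no border macrophage under the knockout label had a count of Lyve1.

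Microglia and other tissue macrophages switch on a shared set of genes when they take up dying cells, myelin or lipid, and this set is known from degenerating retina and brain. Spp1 encodes osteopontin, a secreted glycoprotein that binds integrins and Cd44. Lgals3 encodes galectin 3, a sugar-binding lectin found in the cytosol, at damaged lysosomes and outside the cell. Gpnmb encodes a transmembrane glycoprotein of lysosomes and the cell surface. Fabp5 encodes a cytosolic carrier of fatty acids. Vim encodes vimentin, an intermediate filament protein that monocytes, endothelial cells and Müller glia make in quantity.

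The genes lie on different chromosomes of GRCm38, the assembly also called mm10, all on the plus strand and all protein-coding in GENCODE M21. Spp1 spans chr5:104435118-104441050, with up to 8 exons in a transcript. Gpnmb spans chr6:49036546-49070929, Fabp5 chr3:10012548-10016607, Lgals3 chr14:47367751-47386160 and Vim chr2:13573927-13582826. The RefSeq promoter table for GRCm38.p6 matched Spp1, Gpnmb, Lgals3 and Vim, and not Fabp5. The 250 bases before the annotated start are shown for these genes, 5′ to 3′ on the plus strand, because Spp1 and Gpnmb were at 0 in monocytes while Lgals3 and Vim were abundant there. Capitals mark matches, on either strand, to AP-1 (TGANTCA), an E-box (CACGTG), an M-box (TCATGTG), PU.1 (GAGGAAGT) or a TATA box (TATAAA); no letter string is contained in another.
Spp1, chr5:104434861-104435110: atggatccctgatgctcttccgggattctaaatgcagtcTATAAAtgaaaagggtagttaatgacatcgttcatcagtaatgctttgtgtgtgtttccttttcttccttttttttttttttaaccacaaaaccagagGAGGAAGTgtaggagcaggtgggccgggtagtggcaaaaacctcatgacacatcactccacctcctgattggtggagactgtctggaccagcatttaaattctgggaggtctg
Gpnmb, chr6:49036268-49036517: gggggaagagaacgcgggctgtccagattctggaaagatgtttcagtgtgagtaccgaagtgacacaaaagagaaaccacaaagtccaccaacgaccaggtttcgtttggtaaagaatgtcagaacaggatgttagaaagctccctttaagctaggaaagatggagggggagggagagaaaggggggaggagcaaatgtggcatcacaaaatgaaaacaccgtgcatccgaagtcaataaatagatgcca
Lgals3, chr14:47373610-47373859: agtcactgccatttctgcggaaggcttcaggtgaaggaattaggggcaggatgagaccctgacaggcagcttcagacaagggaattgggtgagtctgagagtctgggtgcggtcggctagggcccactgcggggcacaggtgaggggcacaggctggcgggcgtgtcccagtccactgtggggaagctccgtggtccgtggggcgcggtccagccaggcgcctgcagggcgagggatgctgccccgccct
Vim, chr2:13574061-13574310: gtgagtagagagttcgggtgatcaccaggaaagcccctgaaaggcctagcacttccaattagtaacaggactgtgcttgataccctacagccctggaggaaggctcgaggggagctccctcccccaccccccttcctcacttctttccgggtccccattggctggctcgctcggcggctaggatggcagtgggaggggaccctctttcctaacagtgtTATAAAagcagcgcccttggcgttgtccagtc
The Spp1 window held the PU.1 string at bases -113 to -106 from the start and the TATA string at -211 to -206. A further annotated start of Spp1 has its window at chr5:104435942-104436191, which is not shown and held none of the strings. The Vim window held the TATA string at -32 to -27. The Gpnmb and Lgals3 windows held none of the strings searched. Of 32851 such windows in the table, 2.44% held the PU.1 string, 12.4% the TATA string, 6.75% AP-1, 6.02% the E-box and 3.25% the M-box. G and C made up 66% of the Lgals3 window and 58.4% of the Vim window, against 43.6% for Spp1, 47.2% for Gpnmb and a median of 52.4% over all windows. The Lgals3 and Vim windows lie inside the GENCODE gene spans, which begin at more upstream starts. A match is a string in a window and was not set against binding data.

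In both libraries the transcripts of these genes sat in very few cells. Spp1 had 963 counts in 30 of 1761 cells under the knockout label and 94 counts in 30 of 2695 cells under the wildtype label. The number of cells with Spp1 was the same in libraries of unequal size, and the highest cells held very different amounts. Under the knockout label 4 cells carried 283, 251, 202 and 132 Spp1 counts, together 868 counts or 90.1% of the total. The highest cell under the wildtype label carried 19 counts, and no cell there reached 50. These 4 cells had 18124, 21189, 24976 and 5470 UMIs, and all 4 were in the microglia class.

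The other genes were concentrated in the same way, but less so for Vim. Gpnmb had 359 counts in 28 cells under the knockout label and 51 counts in 16 cells under the wildtype label, with highest cells of 63 and 8 counts. Fabp5 had 1264 counts in 70 cells under the knockout label and 295 counts in 65 cells under the wildtype label, with highest cells of 397 and 65. Both genes thus had similar or moderately different numbers of positive cells and very different highest cells. Lgals3 had 1515 counts in 109 cells under the knockout label and 841 counts in 93 cells under the wildtype label, with highest cells of 332 and 134. Vim had 906 counts in 151 cells under the knockout label and 707 counts in 168 cells under the wildtype label, with highest cells of 151 and 38. Many positive cells held a single UMI, from 32.1% (Gpnmb) to 53.3% (Spp1) under the knockout label and from 37.5% (Gpnmb) to 66.2% (Fabp5) under the wildtype label.

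The 1% of kept cells with the most counts of a gene, 18 cells under the knockout label and 27 under the wildtype label, held 98.8% and 96.8% of the Spp1 counts. The shares were 96.9% and all of the counts for Gpnmb, 90.9% and 87.1% for Fabp5, 78.5% and 88.3% for Lgals3, and 58.9% and 54% for Vim. All 5 genes passed a share of 50% under the knockout label, and Fabp5, Lgals3 and Vim also under the wildtype label. Among all genes with at least 100 counts, 2.4% of 7651 under the knockout label and 2.75% of 8530 under the wildtype label did so, and the median share was 15% and 16.2%. Spp1 and Gpnmb had fewer than 100 counts under the wildtype label and were outside that second count. Their shares there carry no information, because 16 Gpnmb-positive cells are fewer than the 27 cells taken and 30 Spp1-positive cells are scarcely more. Under the knockout label only 30 cells had Spp1 and 28 had Gpnmb. The 18 cells taken would pass 50% there even with equal counts in each positive cell, so passing it says nothing for these genes. Spp1 did reach 50% with 2 cells and Gpnmb with 4 under that label. For Fabp5, Lgals3 and Vim the concentration was seen under both labels.

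**Figure D1:**
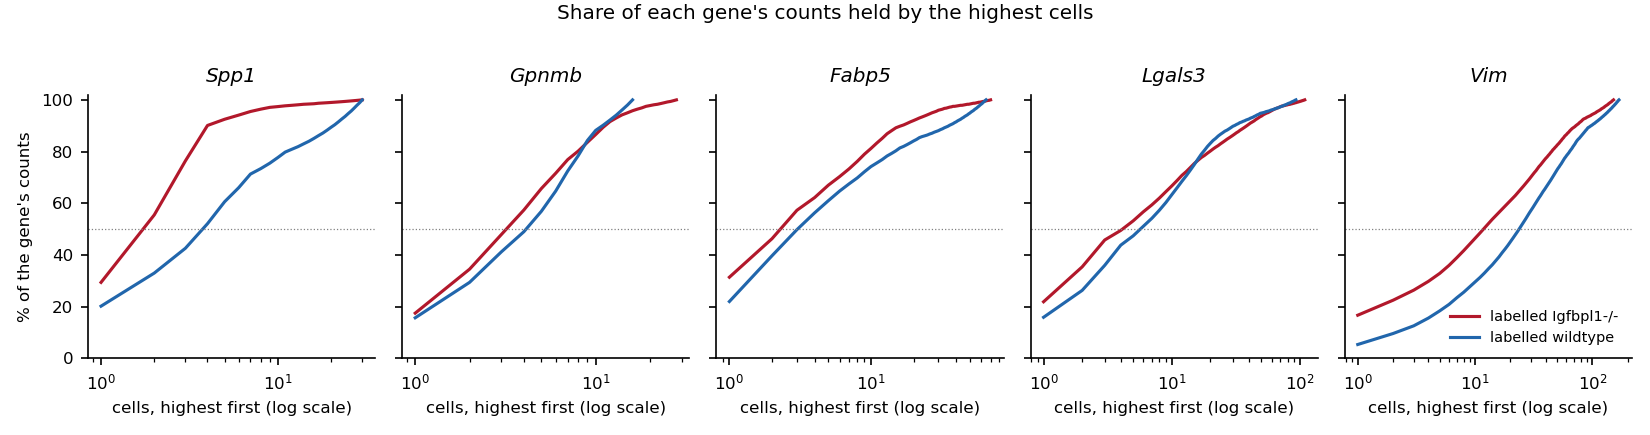
Share of each gene's counts (%, vertical axis) held by the cells with the most counts, added up from the highest cell on (number of cells, log axis), in the library labelled Igfbpl1-/- (red) and the library labelled wildtype (blue). The dotted line marks 50%, which Spp1 reached with 2 and 4 cells and Vim with 12 and 24 cells.

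The genes met in the same barcodes far more often than in the rest of the cells. Of the 28 Gpnmb-positive cells under the knockout label, 71.4% also had Fabp5, against 2.89% of cells without Gpnmb. The wildtype-labelled library had 56.2% of 16 cells, against 2.09%. Spp1 and Gpnmb met in 10 of 30 Spp1-positive cells under the knockout label and in 7 of 30 under the wildtype label. Gpnmb-positive cells also had Lgals3 in 64.3% and 56.2% of cases, against 5.25% and 3.14% of cells without Gpnmb. Of the pairs without Gpnmb, Lgals3 and Vim met most often. Vim was in 60.6% of Lgals3-positive cells under the knockout label and 38.7% under the wildtype label, against 5.15% and 5.07% of cells without Lgals3. Pairs were counted over all kept cells, and 37 of the 109 and 12 of the 93 Lgals3-positive cells were monocytes. Vim was detected in 73.7% and 69.2% of all monocytes. Vim-positive cells seldom had Spp1 (7.28% and 3.57%) or Gpnmb (9.27% and 2.98%), the lowest shares of all pairs. Those shares are capped, because far fewer cells had Spp1 or Gpnmb than had Vim. In the other direction Vim was in 36.7% and 20% of Spp1-positive cells and in 50% and 31.2% of Gpnmb-positive cells. For each of the 10 pairs, the second gene was more frequent in cells with the first than in cells without it, in both libraries.

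**Figure D2:**
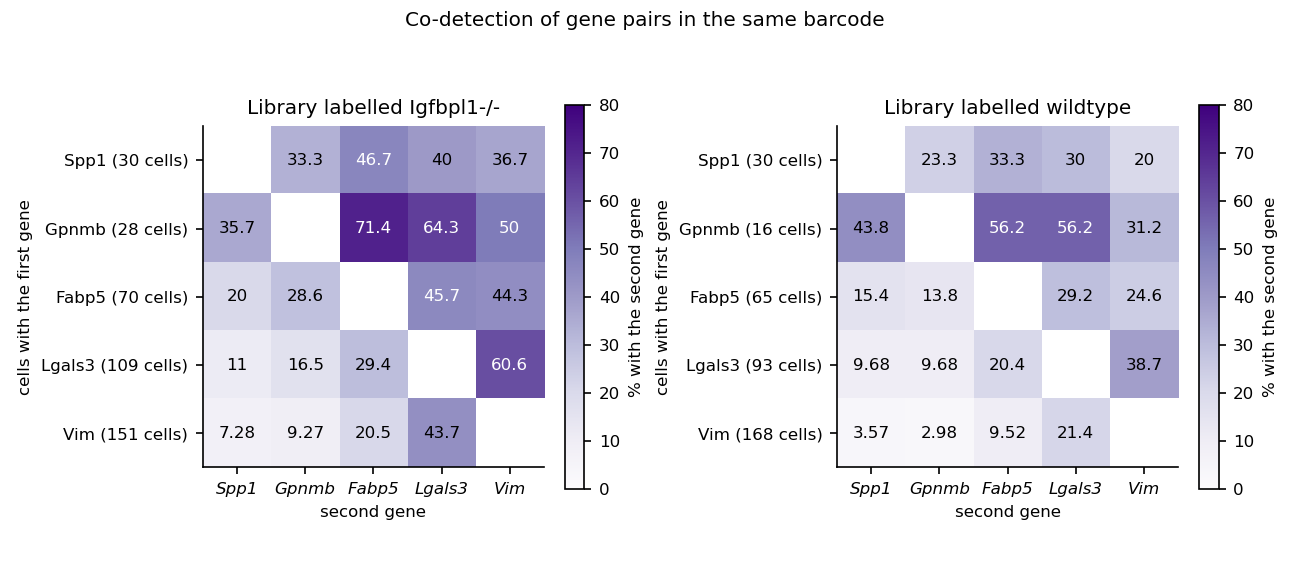
Percent of the cells with a first gene (rows, number of cells in brackets) that also had a second gene (columns), in the library labelled Igfbpl1-/- (left) and the library labelled wildtype (right). Gpnmb-positive cells had Fabp5 in 71.4% and 56.2% of cases, the darkest field of the left panel and joint darkest of the right.

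Depth moved with this measure. Cells with 0, 1, 2, 3, 4 and 5 of the genes had median UMI counts of 4161, 4818.5, 6485, 8801, 9165 and 15864 under the knockout label. Under the wildtype label the medians were 3835.5, 4488, 5587.5, 7894, 5819 and 14485. When every cell was thinned to 1000 UMIs, which left out 46 and 59 shallower cells, Gpnmb-positive cells still had Fabp5 in 12 of 16 cases (75%) under the knockout label and in 3 of 8 (37.5%) under the wildtype label. Spp1 and Lgals3 met in 6 of 17 thinned Spp1-positive cells under the knockout label and in 0 of 14 under the wildtype label. Those shares have wide intervals, 14.2% to 61.7% and 0% to 23.2%. Across the kept cells, which share a library and differ in depth, Pearson's r of log-scaled values was highest in both libraries for Gpnmb and Fabp5 (0.685 and 0.447), followed by Spp1 and Gpnmb (0.54 and 0.396). Lgals3 and Vim were at 0.495 and 0.314, Spp1 and Fabp5 at 0.471 and 0.355, and Fabp5 and Lgals3 at 0.463 and 0.346. It was low for Spp1 and Vim (0.112 and 0.0811) and for Gpnmb and Vim (0.148 and 0.05). These values describe 1761 and 2695 cells of 1 library each.

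A small set of cells held several of the genes at once. At least 3 of the genes were detected in 33 cells (1.87%, exact Clopper-Pearson interval 1.29% to 2.62%) under the knockout label and in 16 cells (0.594%, 0.34% to 0.962%) under the wildtype label. After thinning there were 16 and 4 such cells. Under the knockout label the 33 cells were 15 microglia, 8 unclassified cells, 7 monocytes and 3 border macrophages. The 16 cells under the wildtype label were 11 microglia, 2 unclassified cells, 1 monocyte, 1 border macrophage and 1 cell that met the marker minimum of more than 1 other class. No Müller glial cell was among them in either library. They held 94.9% of all Spp1 counts under the knockout label and 60.6% under the wildtype label, 93.9% and 76.5% of Gpnmb, and 92.8% and 73.2% of Fabp5. For Lgals3 the shares were 76.4% and 56.8%, and for Vim they were 40.7% and 11.6%, so that most Vim lay in other cells.

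Among microglia with at least 3 of the genes, the makeup varied from cell to cell. The deepest such cell under the knockout label, with 30066 UMIs, held 397 Fabp5, 157 Lgals3, 63 Gpnmb, 31 Vim and 15 Spp1 counts. The next, with 26939 UMIs, held 332 Lgals3, 151 Vim and 41 Fabp5 counts and neither Spp1 nor Gpnmb. That cell had 5 microglia markers, 3 of the 4 markers needed for Müller glia, 1 monocyte marker and 1 border macrophage marker. Its Vim counts were 151 of the 307 in microglia under that label. No working doublet call was available, so it may not be a single microglial cell. Another cell, of 24976 UMIs, held the opposite set, with 202 Spp1, 37 Fabp5 and 34 Gpnmb counts and neither Lgals3 nor Vim. Other cells held both sets: the cell with 283 Spp1 counts, the highest, also had 40 Lgals3 and 7 Vim counts, and the cell with 251 had 56 and 15. In the library labelled wildtype the deepest such microglial cell, with 16473 UMIs, held 87 Lgals3, 7 Fabp5 and 3 Gpnmb counts, and the cell with the most Spp1 held 19 Spp1, 6 Fabp5, 2 Gpnmb and 1 Lgals3 count in 5819 UMIs. The highest Lgals3 count under that label, 134, was in an unclassified cell with 1 detected microglia marker.

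**Figure D3:**
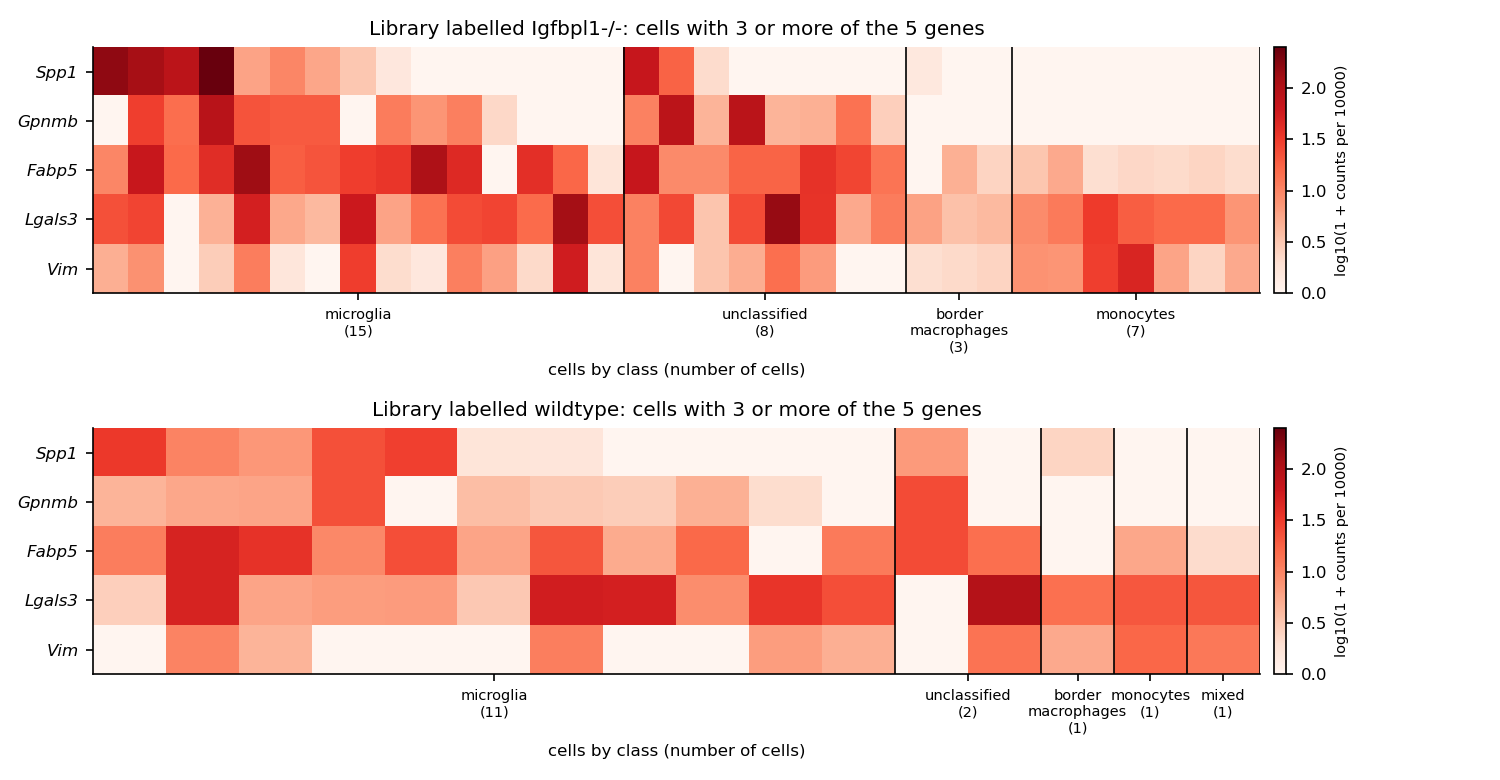
Each column is 1 cell with at least 3 of the 5 genes, grouped by class with the number of cells in brackets, in the library labelled Igfbpl1-/- (top, 33 cells) and the library labelled wildtype (bottom, 16 cells); colour is log10(1 + counts per 10000 UMIs). Monocytes show Fabp5, Lgals3 and Vim without Spp1 or Gpnmb, while microglia and unclassified cells show mixtures of all 5.

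These cells carried microglia markers at a low level. The sum of the 10 microglia markers was 5549.2 CPM (counts per 1000000 summed counts) in the 15 microglia with at least 3 of the genes under the knockout label, against 21933.2 CPM in the 1454 other microglia. Under the wildtype label it was 7141.6 CPM in 11 cells and 22188.9 CPM in the 2341 others. Border macrophages stood at 9646.6 and 9583.4 CPM and monocytes at 1337.7 and 1643.9 CPM. T and NK cells stood at 6050.6 and 10201.0 CPM (18 and 3 cells) and rods at 152.9 and 5511.0 CPM. The summed level alone therefore does not set microglia apart from other cells here. The medians per cell, in counts per 10000 UMIs, were 59.7 and 94.5 in the microglia with at least 3 of the genes. They were 17.6 and 6.15 in T and NK cells and 0 in rods. Summed over the microglia with at least 3 of the genes, all 10 markers were detected. Of these, 9 of 10 were at least 2-fold lower than in other microglia in both libraries. The single cells had a median of only 6 and 5 of the 10 markers, against 9 and 8 in other microglia. The lowest had 4, the minimum of the class. P2ry12, a purine receptor gene of resting microglia, was at 0.0241 and 0.143 of its level in other microglia. Fcrls was the exception, at ratios of 1.7 and 1.23.

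Most monocyte markers and most border macrophage markers were at 0 in them. The class rule fixes part of this, because a cell with 3 or more markers of either list leaves the microglia class. Of the cells with at least 3 of the genes, 3 and 1 were thus counted as border macrophages and 7 and 1 as monocytes. Ms4a7, a membrane protein gene of border macrophages, stood at 639.4 CPM in these cells against 33.1 CPM in other microglia under the knockout label, and at 367.0 against 12.7 CPM under the wildtype label. It was detected in 13 of 15 and in 7 of 11 cells. The border macrophage markers Mrc1, Pf4, Cd163, Lyve1, F13a1, Cbr2 and Folr2 had no count in either set. Of 10 monocyte markers, 1 (S100a4, with 9 counts) was detected under the knockout label and 0 under the wildtype label. Their median depth was 16199 and 10160 UMIs, against 4339 and 3972 in other microglia, and the part of depth or of other cell types in their makeup was not tested.

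The microglia with at least 3 of the genes held, under the knockout label, 94.9% of the Spp1 counts of all microglia, 98.6% of Gpnmb, 94% of Fabp5, 92.7% of Lgals3 and 83.1% of Vim. In the same order the wildtype-labelled library had 67.9%, 89.7%, 74.4%, 68.3% and 27.5%. Vim thus differed most from the other genes under the wildtype label, where most of its microglial counts lay elsewhere. Among the 1454 and 2341 remaining microglia Spp1 stood at 7.65 and 2.69 CPM, Gpnmb at 0.625 and 0.414 and Fabp5 at 10.6 and 6.73. Lgals3 stood at 9.84 and 14.6 CPM there and Vim at 8.12 and 11.2, the opposite order. These microglia were left by a choice on the same genes, so neither order carries a test.

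Other genes of the same known set were high in these cells too. Of 35 measured genes on a list of disease- and lipid-associated phagocyte genes that leaves out the 5 genes themselves, 25 were at least 2-fold higher and 1 lower than in other microglia under the knockout label. Of all 6732 genes measured there, 9.21% were higher and 21.2% lower. Under the wildtype label 24 of 32 were higher and 2 lower, against 10.6% and 12.7% of 6526 genes. A gene that reached the minimum of 20 CPM only in the chosen cells could not be counted as lower. Several of the higher genes were of this kind, among them Anxa2, at 6.09 and 6.53 CPM in other microglia. Under the knockout label S100a6 was another, at 1.72 CPM in other microglia and with all its 33 counts inside in 1 cell. Apoe, the main lipid carrier of nervous tissue, was at 42909.5 CPM inside and 3816.4 CPM outside under the knockout label, and at 30646.0 and 1484.8 CPM under the wildtype label. Cst7, a cysteine protease inhibitor, was 18.1 and 49.6 times as high, and Cd63, a tetraspanin of endosomes and lysosomes, 6.24 and 6.3 times. Cd9 (0.931 and 0.952) and Trem2, a lipid-sensing receptor (1.13 and 1.8), differed by less than 2-fold.

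The lists built around single genes gave smaller numbers. Of the S100 and annexin genes, calcium-binding proteins of the membrane and cytoskeleton, 8 of 12 were at least 2-fold higher and 1 lower in these cells under the knockout label, and 7 of 10 were higher and 0 lower under the wildtype label. For fatty acid binding and lipid storage 6 of 11 were higher and 2 lower, and 4 of 8 higher and 0 lower, with Fabp3 at ratios of 57.4 and 35.3 and Plin2, a coat protein of lipid droplets, at 7.23 and 6.27. Of the receptors of osteopontin, 2 of 7 were higher and 2 lower under the knockout label, and 1 of 6 higher and 1 lower under the wildtype label. Cd44 was higher, at ratios of 8.24 and 7.7, and Itgb5 was at 0.524 and 0.559. Of the MiT/TFE factors and lysosomal genes 3 of 11 were higher and 0 lower under the knockout label, and 2 of 11 higher and 1 lower under the wildtype label. Of galectins 1 of 4 was higher and 0 lower, and 1 of 3 higher and 1 lower. Both measured intermediate filament genes, Lmna and Lmnb1, were higher in both libraries. The shares of all genes, 9.21% higher and 21.2% lower under the knockout label and 10.6% and 12.7% under the wildtype label, are the background of these counts too. Here too, several of the higher genes reached the minimum of 20 CPM only in the chosen cells. Among them were Fabp3 (2.03 and 1.86 CPM in other microglia), Cd44 (3.91 and 6.11), Lmna (13 and 12.2) and S100a1 (18.4 and 15.2). Cells were chosen by the 5 genes and are deeper, so the counts of higher and lower genes describe them and carry no test.

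Monocytes set Spp1 and Gpnmb apart from Lgals3 and Vim. Spp1 and Gpnmb had no count in monocytes in either library (38 and 13 cells), with exact upper limits of 14.9 and 48.9 CPM, and Spp1 had none in Müller glia. Lgals3 was detected in 97.4% of monocytes under the knockout label and 92.3% under the wildtype label, at 1358.0 and 2068.1 CPM. Vim was detected in 73.7% and 69.2% of monocytes, at 913.4 and 1537.8 CPM. Of the named classes, monocytes had the most Lgals3 in both libraries, far above microglia at 129.8 and 45.6 CPM. Vim was also abundant in Müller glia, at 1172.6 and 982.7 CPM and in 83.3% and 88.7% of cells. Under the wildtype label this level (interval 870.2 to 1105.7) was below that of monocytes (1270.7 to 1844.5).

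The remaining levels were small. Fabp5 stood at 170.7 and 26 CPM in microglia, 34.6 and 13.3 CPM in border macrophages, 36.4 and 39.8 CPM in monocytes and 4.81 and 7.12 CPM in Müller glia. Spp1 stood at 143.2 and 8.3 CPM in microglia and at 3.15 and 24 CPM in border macrophages. Its highest class therefore differed, microglia under the knockout label and border macrophages under the wildtype label. The second of these rests on 9 counts in 5 of 69 cells, with 5 counts in 1 cell, and on 1 count after thinning. Its interval (11 to 45.6 CPM) lies above that of microglia (6.59 to 10.3). Both intervals cover counting error only and not the clustering of counts in single cells, so this order of classes is weak. Gpnmb stood at 44.1 and 4 CPM in microglia and at 34.6 and 0 CPM in border macrophages, where all 11 counts under the knockout label came from 1 cell. Of the named classes, bipolar cells had the highest Gpnmb level in both libraries, at 73.4 and 112.0 CPM. These levels rest on 4 and 7 counts in 9 and 12 cells (intervals 20 to 187.8 and 45 to 230.8 CPM). Lgals3 stood at 72.4 and 88 CPM in border macrophages and Vim at 40.9 and 32 CPM, with overlapping intervals between the libraries.

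Unclassified cells, 92 and 135 in number, had fewer markers than any minimum and low depth, with medians of 1649.5 and 1257 UMIs. They nevertheless held 100 and 24 Fabp5 counts (524.4 and 117.6 CPM), 50 and 4 Gpnmb counts (262.2 and 19.6 CPM) and 268 and 167 Lgals3 counts (1405.5 and 818.0 CPM). Of the 268 Lgals3 counts 205 were in 1 cell, and of the 167 counts 134. Rods, which should lack all 5 genes, had 0 counts of each in 11 and 16 cells, with exact upper limits of 28.5% and 20.6% of cells with a UMI. Their medians of 1146 and 1408 UMIs were far below those of microglia, 4377 and 3979.5. Lgals3 had a UMI in 26.2% and 18.9% of Müller glia, with at most 2 and 1 counts in a cell.

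**Figure D4:**
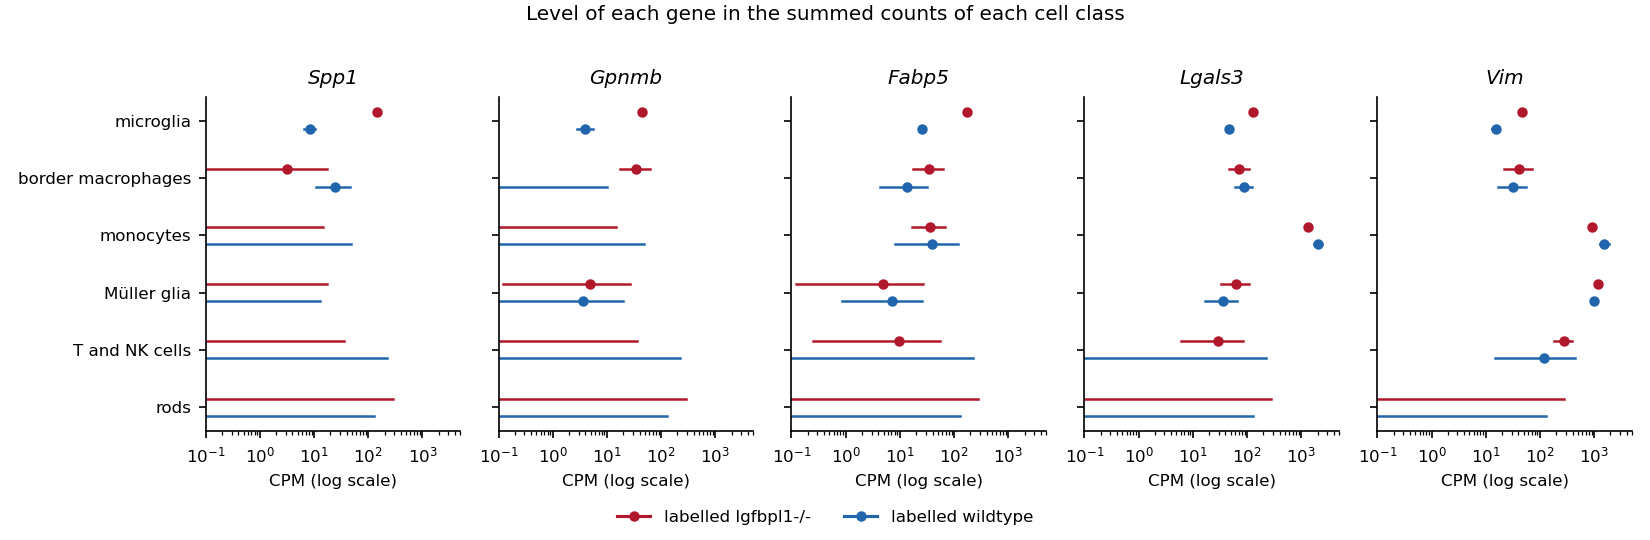
Level of each gene (CPM, log axis) in the summed counts of each class, in the library labelled Igfbpl1-/- (red, upper of each pair) and the library labelled wildtype (blue, lower), with exact 95% Poisson intervals as lines; a line without a point is a class with 0 counts. Of the classes drawn, Lgals3 lies highest in monocytes and Vim in monocytes and Müller glia, while Spp1 and Gpnmb have no point there or one near the floor. Bipolar cells, the named class with the most Gpnmb, are not drawn.

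In microglia, the summed counts of all 5 genes were higher under the knockout label. Spp1 had 952 and 81 counts, a ratio of 17.3 (interval 13.7 to 21.9), and Fabp5 had 1135 and 254 counts, a ratio of 6.56 (5.72 to 7.54). Gpnmb had 293 and 39 counts, a ratio of 11 (7.88 to 15.8). Lgals3 followed with 863 and 445 counts, a ratio of 2.85 (2.54 to 3.2), and Vim with 307 and 149 counts, a ratio of 3.02 (2.48 to 3.7). Of 3237 genes with at least 50 CPM in 1 library, 0.309% were at least 2-fold higher and 0.124% lower, and 98.7% lay within 1.5-fold. Spp1, Fabp5 and Lgals3 ranked 1, 2 and 6 among them; Gpnmb and Vim were below that minimum. Because the genes were taken for this difference, nothing is read from these ranks.

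The share of microglia with a UMI differed much less than the sum. After thinning to 1000 UMIs it was 0.968% and 0.388% for Spp1, 0.622% and 0.215% for Gpnmb, and 1.52% and 0.904% for Fabp5. For Lgals3 it was 1.24% and 0.646% and for Vim 1.17% and 0.904%. Unthinned, the shares were 1.77% and 0.893% for Spp1, 0.953% and 0.425% for Gpnmb, 3% and 2.04% for Fabp5, 2.31% and 1.74% for Lgals3, and 3.27% and 3.19% for Vim. The differences in sums thus came with a few cells of many counts, and for Vim the share of positive cells was nearly equal.

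The ratios rested on those cells and on where the class was drawn. Without the cells holding at least 3 of the genes, the log2 ratio was 1.51 for Spp1, 0.658 for Fabp5 and 0.593 for Gpnmb (4 and 4 counts). It was -0.569 for Lgals3 and -0.462 for Vim. This removal was by the same 5 genes, so a loss of counts was built in. It took 92.7% of microglial Lgals3 counts under the knockout label and 68.3% under the wildtype label, and 83.1% and 27.5% of Vim. The changed signs describe that unequal removal and carry no test. The class rule counts detected markers, and a deep cell detects more of them. With the markers counted after thinning to 1000 UMIs, a choice made after the data had been seen, 1360 and 2204 cells were microglia, of which only 2 and 3 held at least 3 of the genes. Spp1 was then at 3.7, Fabp5 at 0.581, Gpnmb at 0.488, Lgals3 at 0.398 and Vim at -0.609. Whether the cells that leave the class are microglia was not tested.

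**Figure D5:**
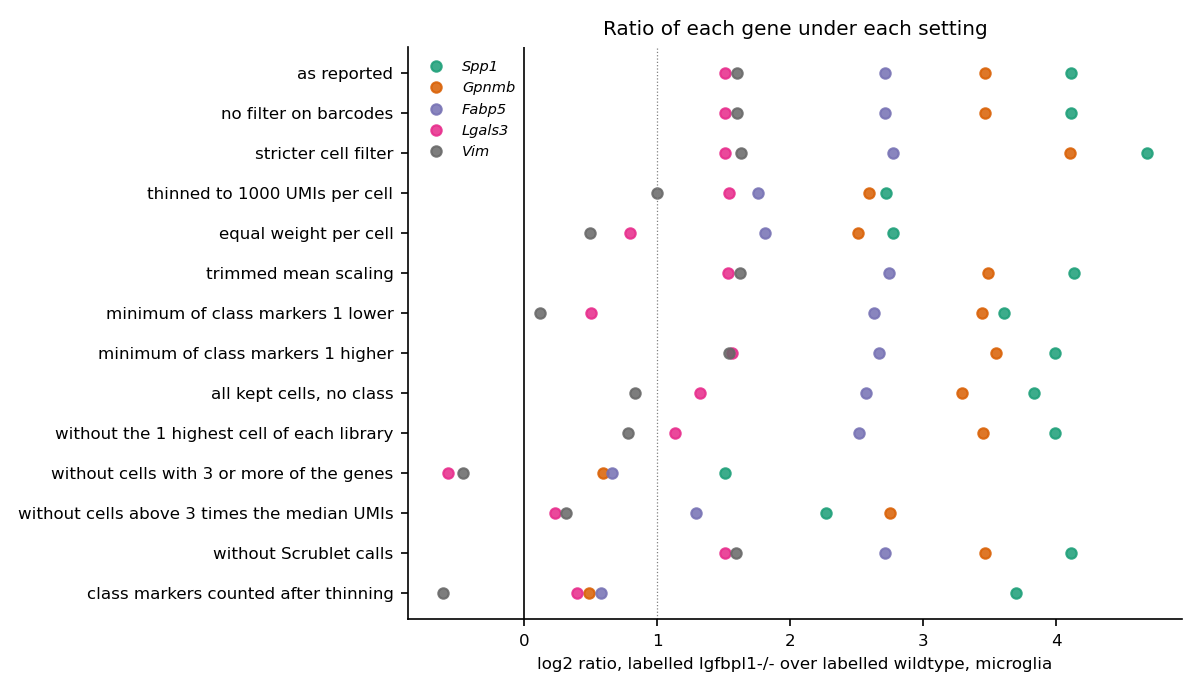
Log2 ratio of each gene in microglia, library labelled Igfbpl1-/- over library labelled wildtype (horizontal axis), under each setting (rows; the row for all kept cells uses no class); the solid line marks no difference and the dotted line 2-fold. Spp1 stays right of the dotted line in every row, between 1.51 and 4.68, while Lgals3 and Vim reach -0.569 and -0.609.

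Monocytes, rich in Lgals3 and Vim, showed the opposite order of the libraries. The ratio there was 0.657 (interval 0.541 to 0.799) for Lgals3 and 0.594 (0.473 to 0.75) for Vim, on 38 and 13 cells. Counted from the highest ratio, Lgals3 ranked 1471 and Vim 1543 of 1781 genes in monocytes, so many genes had lower ratios. Under the wildtype label 1 cell held 31 of the 156 Lgals3 counts and 1 cell held 38 of the 116 Vim counts. The intervals do not cover such clustering, so this order is weak. In Müller glia Vim had 244 and 276 counts, a ratio of 1.19 (1 to 1.42). In border macrophages the genes went different ways on few counts. Spp1 had 1 and 9 counts, a ratio of 0.131 (0.00299 to 0.946), while Fabp5 had 11 and 5 counts, a ratio of 2.6 (0.832 to 9.53). Gpnmb had 11 and 0 counts, at least 4.33-fold higher against a floor of 3 summed counts, all from 1 cell. Lgals3 was at 0.822 (0.461 to 1.44) and Vim at 1.28 (0.538 to 3.07).

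The wider gene lists were close between the libraries in microglia. Of 25 measured disease- and lipid-associated phagocyte genes (37 of 38 listed are in the tables), 2 were at least 1.5-fold higher under the knockout label and 0 were lower; their median on the log2 scale was 0.0702. Of all 6248 genes measured at 20 CPM or more, 0.672% were higher and 0.768% lower, and the median was -0.0328. The 2 were Apoe (5278.4 and 1802.3 CPM, a ratio of 2.93) and Lgals3bp, a secreted partner of galectins (a ratio of 1.55). Among the others Ctsd, a lysosomal protease and the most abundant member, was at 1.19, and Csf1, a growth factor of macrophages, at 0.849.

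None of the 8 measured fatty acid binding and lipid storage genes, 8 S100 and annexin genes, 5 osteopontin receptors or 11 MiT/TFE and lysosomal genes passed 1.5-fold in microglia. Plin2 was at a ratio of 1.48 and Soat1, an enzyme of cholesterol esterification, at 0.896. Of the receptors Itgb3 was at 1.26 and Itgb1 at 0.736. S100a1 was at 1.48 and Anxa3, the most abundant of its list, at 1.01. Mitf, a transcription factor known to drive Gpnmb in pigment cells and osteoclasts, was at 0.959 and Lamp1, a lysosomal membrane protein, at 0.885. Of 3 measured galectin genes Lgals3bp passed and Lgals8 (0.943) and Lgals9 (1.06) did not, and Lmnb1 was the 1 measured intermediate filament gene besides Vim, at 0.925.

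Genes whose values over the cells were most like the mean of the 5 were found by Pearson's r in each library, ranked by the lower of both over 7599 genes with at least 100 counts in each. The highest were Gm1673 (0.498 under the knockout label and 0.388 under the wildtype label), Lilr4b, a leukocyte receptor gene (0.35 and 0.368), and Iqgap1, a cytoskeletal scaffold (0.409 and 0.348). S100a6 (0.344 and 0.354), Mgst1 (0.34 and 0.367), Anxa2 (0.404 and 0.332), Ass1 (0.316 and 0.342), Apoe (0.312 and 0.321), Anxa1 (0.307 and 0.351) and S100a4 (0.34 and 0.3) completed the 10. The cells share a library and differ in depth, and in counts as sparse as these such values are weak.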

How the data were processed

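Per the labels, CD45-sorted retinal cells were profiled with a 10x 3′ kit, 1 library per group. The authors deposited whole-number UMI counts per gene and barcode, not normalized. The tool named per the submitters' processing notes is Cell Ranger 3.1 and the build mm10. Barcodes were kept with at least 500 UMIs, 250 genes and at most 15% mitochondrial counts. Classes came from lists of 10 markers: at least 4 detected for microglia with no other class reached, 3 for border macrophages and monocytes, and 4 for 7 other classes; cells meeting more than 1 other class were set apart as mixed and those meeting none as unclassified. These minimums were set after the distributions of marker counts had been seen. The 5 genes, the marker and pathway lists and the class rule were chosen with earlier results of these data known. For the microglia list, 56 cells lay 1 marker below the minimum and 76 at it under the knockout label, and 72 and 106 under the wildtype label.

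Counts were summed per class and given as CPM, with exact Poisson intervals; shares have exact Clopper-Pearson intervals, and ratios the exact interval of the split of their counts. A count of 0 was set to 3 counts for a ratio; in counts of genes past a fold, all counts under 3 were. The ratio step was tested on simulated counts. Cells are not replicates, so no test was run. Named genes were the 5, Igfbpl1, the 10 most alike, and from each list its most abundant member and, above 20 CPM, the 2 with the highest and the 2 with the lowest ratio, with the 2 most abundant markers of each class; genes named for their ratio inside the cells with at least 3 genes (Cst7, Cd63, Cd9, Trem2, Fabp3, Cd44, Lmna and single markers) were chosen after their values were seen. Analyses used Python 3.11.15, scipy 1.17.1 and scanpy 1.11.5. Scrublet called 0 and 3 doublets (0.0673% of 4456 cells), so it has not worked; doublets were not removed and must be assumed to remain. The counting of strand and overlapping genes is not given in the sources used here.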

Additional observations from a re-analysis of the deposited data

Results flagged for a closer look

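Spp1 had a ratio of 0.131 in border macrophages (1 and 9 counts) against 17.3 in microglia, the opposite direction in these classes; the difference was not tested. Lgals3 had a ratio of 0.657 in monocytes against 2.85 in microglia, and Vim 0.594 against 3.02; these differences were not tested either, and monocytes numbered 38 and 13. Igfbpl1, outside the 5 genes, had 29 counts under the knockout label against 2 under the wildtype label.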

How the results depend on the processing

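No paired analysis was possible because each group is 1 library. Over 13 alternatives the log2 ratio in microglia ran from 1.51 to 4.68 for Spp1, 0.488 to 4.1 for Gpnmb, 0.581 to 2.77 for Fabp5, -0.569 to 1.56 for Lgals3 and -0.609 to 1.63 for Vim; Spp1 stayed at least 2-fold higher in 13, Gpnmb and Fabp5 in 11, Lgals3 in 8 and Vim in 6. No barcode filter, trimmed mean scaling (a shift of -0.023), removing Scrublet calls and a minimum 1 marker higher moved none of the 5 beyond its counting interval. In the order Spp1, Gpnmb, Fabp5, Lgals3 and Vim, equal weight per cell gave 2.77, 2.51, 1.81, 0.792 and 0.496; leaving out cells above 3 times the median UMIs 2.27, 2.75, 1.29, 0.23 and 0.316; leaving out cells with at least 3 of the genes 1.51, 0.593, 0.658, -0.569 and -0.462; and class markers counted after thinning, added after seeing the data, 3.7, 0.488, 0.581, 0.398 and -0.609. Thinning to 1000 UMIs gave 2.72 for Spp1, 2.59 for Gpnmb, 1.76 for Fabp5 and 1 for Vim. The stricter cell filter gave 4.68 for Spp1 and 4.1 for Gpnmb. A minimum 1 marker lower gave 3.61 for Spp1, 0.501 for Lgals3 and 0.121 for Vim. Both shifts of the minimum applied to every class, so cells could also leave the microglia for another class. With the lower minimum, microglia under the knockout label held 427 Lgals3 and 113 Vim counts, fewer than as reported. All kept cells gave 1.32 for Lgals3 and 0.83 for Vim, and leaving out the 1 highest cell of each library 1.13 and 0.777. Genes at least 2-fold higher and lower numbered 10 and 4, but 6 and 2 at a minimum of 100 CPM and 422 and 328 with no minimum. Cells with at least 3 of the genes numbered 33 and 16, but 16 and 4 after thinning and 20 and 10 without cells above 3 times the median UMIs. Among single-gene and class values beside these, 24 stayed within their interval and 16 moved. Apart from the settings' own construction (fewer cells, equal depth, cells removed by the same genes), the cause of each move was not tested. With 1 library per group, no setting separates the label from the library.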

Other observations

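Gpnmb was counted in bipolar cells, with 4 counts in 3 of 9 cells under the knockout label and 7 counts in 4 of 12 cells under the wildtype label. Vim had 30 and 26 counts in 3 and 2 endothelial cells and 28 and 2 counts in 18 and 3 T and NK cells. Among the barcodes removed by the filter, 24 under the knockout label and 40 under the wildtype label, Vim had 14 counts in 9 and 18 counts in 13, and the other genes had 0.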
